A study of Homo sapiens with 6 samples.

Results

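The genes examined were 8 members of the apoptotic machinery, the death receptors TNFRSF10A, TNFRSF10B and FAS, the caspases CASP8, CASP9 and CASP4, and the apoptosome components APAF1 and CYCS, out of 22411 genes with a cluster of their own on the array. They were chosen by name, with 1 transcript cluster per gene, and each of the 8 had exactly 1 such cluster, shared with no other gene. The arrays (GeneChip HTA 2.0) measured total RNA of SCC25, a human squamous cell carcinoma line of the tongue. The control group was 3 samples of cells given the vehicle DMSO (0.1%), and the TM group was 3 samples given tunicamycin (TM) at 5 µg mL−1, both for 6 h. TM is an inhibitor of N-linked glycosylation and is used to provoke stress of the endoplasmic reticulum (ER), where unfolded proteins then build up. The design text calls the 3 samples of a group independent biological replicates of this single line. The source name given for TM samples reads SCC28, while their cell line field reads SCC25. In bulk RNA a change in the make-up of the culture and a change per cell cannot be told apart.

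In the extrinsic route to apoptosis a ligand clusters death receptors at the cell surface, and the adaptor FADD recruits the initiator caspase encoded by CASP8. In the intrinsic route cytochrome c leaves the mitochondria and binds APAF1, which assembles into the apoptosome and activates the caspase encoded by CASP9. Under prolonged ER stress the transcription factor CHOP, encoded by DDIT3, is known to raise TNFRSF10B, while the caspase encoded by CASP4 lies partly at the ER membrane and is best known for sensing bacterial lipopolysaccharide.

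Each value is on the log2 scale as the authors deposited it, and a difference is TM minus control on that scale. The array medians ran from 5.39 to 5.52. As a rough check of the label across probes, which differ in brightness, 6 of 6 measured squamous markers, such as KRT5 and DSG3, read above the median coding cluster, as did 0 of 5 leukocyte, 0 of 4 endothelial and 1 of 5 fibroblast markers. DDIT3 read 6.02, 6.01 and 9.28 on control arrays 1 to 3, against 9.04, 8.88 and 5.86 on TM arrays 1 to 3. The arrays labelled control 3 and TM 3 thus stood near the other group for this ER stress gene, as they did for HSPA5 and HERPUD1. The labels were kept, and each result is given for all 6 arrays and for replicates 1 and 2 alone, a choice made with these levels known. Since those levels led to the choice, calls among replicates 1 and 2 do not test the response to TM afresh.

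The levels of the 8 genes were not set against each other. Over the 6 arrays APAF1 and TNFRSF10B had the widest ranges, 0.58 and 0.52, followed by TNFRSF10A with 0.30. The other 5 genes stayed within 0.23.

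**Figure D1:**
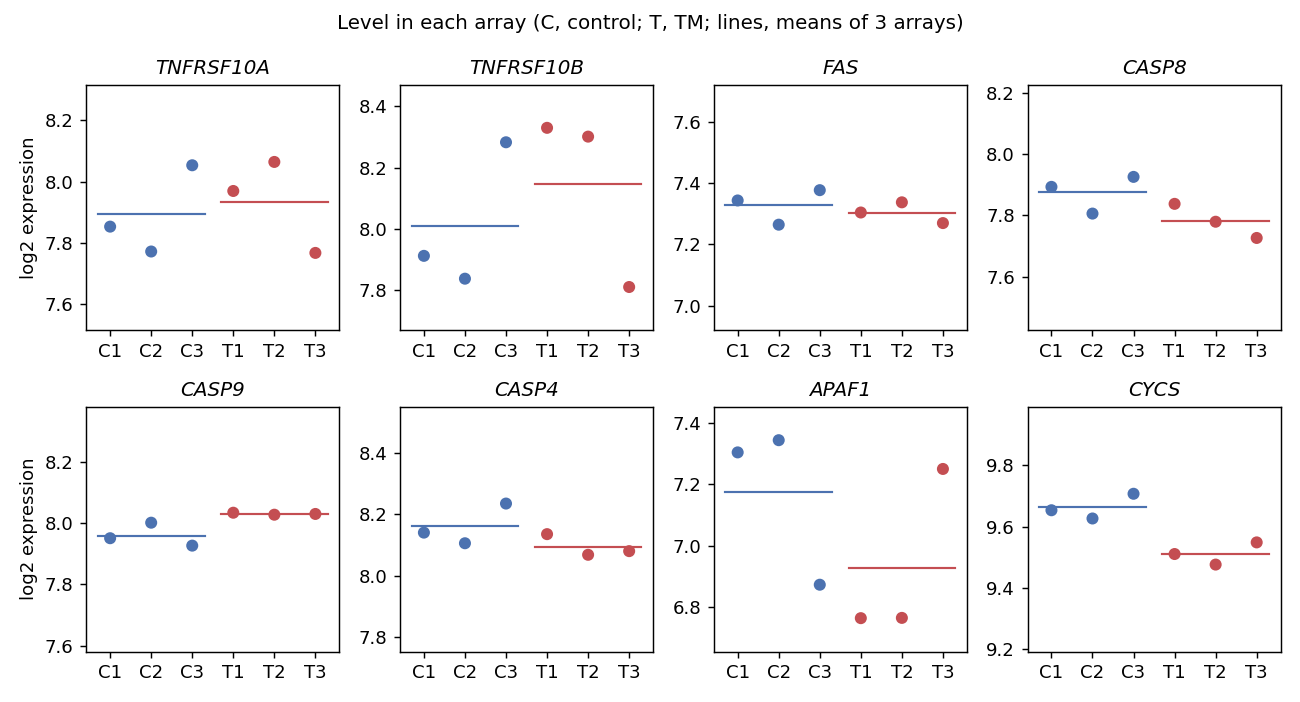
Log2 expression of the 8 genes (vertical axis, the same span of 0.8 in each panel) in the 3 control (C, blue) and 3 TM (T, red) arrays, with a line at each group mean. TNFRSF10B and APAF1 have the widest ranges, 0.52 and 0.58, with C3 near T1 and T2 and T3 near C1 and C2.

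With all 6 arrays 0 of the 8 genes passed an adjusted p of 0.05 in limma, as did 0% of all clusters. By unadjusted p alone (under 0.05), 1 of the 8 passed (CYCS), against 20.5% of all clusters. None of the 8 also reached a fold change of 1.2, against 5.92% of all clusters. In replicates 1 and 2, 1 of the 8 was lower with TM at an adjusted p under 0.05 (APAF1) against 0.675% of all clusters, and 0 were higher against 0.546%. Of the 18215 coding clusters, 60 were lower and 188 higher at that threshold. By unadjusted p with the 1.2-fold minimum there, 1 of the 8 was higher (TNFRSF10B) against 6.96% of all clusters, and 1 was lower (APAF1) against 7.60%. The 8 genes had a median difference of −0.05 (all 6 arrays) or −0.00224 (replicates 1 and 2), against 0.04 over all clusters in both. Over coding clusters the medians were 0.03 and 0.05.

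APAF1 encodes the scaffold of the apoptosome. It read 7.30, 7.34 and 6.87 on control arrays 1 to 3, against 6.76, 6.76 and 7.25 on TM arrays 1 to 3. Control 1, control 2 and TM 3 were thus high, and control 3, TM 1 and TM 2 were low, so the groups as labelled overlapped. Over all 6 arrays its difference was −0.25 (standard error 0.17, adjusted p = 0.445 from limma). Without the replicate 3 arrays APAF1 fell by 0.56 on the log2 scale (limma, adjusted p = 0.0351, standard error 0.06), to 0.678 of the control level, with 95% limits of −0.71 and −0.41. Of 18215 coding clusters, 39 had a difference at least this low there, APAF1 included. Without any 1 of these 4 arrays the difference stayed between −0.58 and −0.54, and the call ended. Such a fit leaves 1 array in a group and few clusters of any kind pass, so the lost call says little of APAF1 itself.

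The promoter of APAF1 is shown because APAF1 was the 1 gene of the 8 that passed, and that of CYCS because its partner CYCS was lower in each TM array. Both windows are RefSeq sequence of GRCh38.p14, from 250 bases before to 50 after the annotated start, 5′ to 3′ on the strand of the gene. APAF1 lies on the plus strand at chr12:98645040-98645339 and CYCS on the minus strand at chr7:25125211-25125510. Capitals mark matches, on either strand, to the motifs searched.
APAF1: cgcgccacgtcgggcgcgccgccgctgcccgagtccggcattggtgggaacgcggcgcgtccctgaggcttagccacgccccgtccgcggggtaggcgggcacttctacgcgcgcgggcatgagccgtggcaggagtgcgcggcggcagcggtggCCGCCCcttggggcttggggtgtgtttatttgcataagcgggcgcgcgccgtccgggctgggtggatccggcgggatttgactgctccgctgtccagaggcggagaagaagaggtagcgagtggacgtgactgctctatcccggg
CYCS: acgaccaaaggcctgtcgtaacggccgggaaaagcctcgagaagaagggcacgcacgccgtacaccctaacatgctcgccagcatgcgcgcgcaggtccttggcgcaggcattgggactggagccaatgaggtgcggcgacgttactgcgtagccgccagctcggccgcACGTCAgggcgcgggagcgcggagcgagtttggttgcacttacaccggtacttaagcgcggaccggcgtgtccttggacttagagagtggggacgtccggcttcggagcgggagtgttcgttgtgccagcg
The motifs were TGATGCAA (core of the C/EBP-ATF composite element), TGACGT (core of the CRE and UPRE), TGAGTCA (AP-1), the ERSE (CCAAT, then CCACG after 9 bases), and, added once the windows had been read, GGGCGG (GC box) and TTTNGCGC (E2F). The 1 match in APAF1 is a GC box read on the opposite strand, a motif found in 45.0% of 35116 promoter windows of this length. The 1 match in CYCS is the TGACGT core, read on the opposite strand and found in 7.98% of windows. Neither of these windows held TGATGCAA, which is in 0.866% of all windows, or the ERSE, which is in 0.0769%. Windows were examined for 6 of the 8 genes, and not for TNFRSF10A and TNFRSF10B. Among those examined, both CASP9 windows held the most GC boxes, 8 and 9. They had 76.0% and 71.3% of bases G or C, against 71.3% for APAF1 and 64.7% for CYCS. AP-1, which is in 4.95% of all windows, was found in 2 of the 3 CASP8 windows. A match is a run of letters and no measurement of binding.

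CYCS encodes cytochrome c, which carries electrons in respiration and joins APAF1 in the apoptosome once released. It read 9.65, 9.63 and 9.71 on control arrays 1 to 3, against 9.51, 9.48 and 9.55 on TM arrays 1 to 3. Every TM array lay below every control array, a pattern that 7.49% of all clusters had in this direction. The difference over all 6 arrays was −0.15 (standard error 0.05, adjusted p = 0.185 from limma), with an exact permutation p of 0.1, two-sided, the smallest that 3 arrays against 3 allow. It was −0.15 in replicates 1 and 2 as well (standard error 0.06, adjusted p = 0.193 from limma). CYCS (lower) and CASP9 (higher) were the 2 genes of the 8 whose groups did not overlap as labelled. Of all clusters, 7.49% were apart in this way as lower and 20.5% as higher, so such a pattern was common. The human genome also holds processed pseudogenes of CYCS, which makes the source of its signal less certain.

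CASP9, the caspase that the apoptosome activates, read 7.950, 8.001 and 7.926 on control arrays 1 to 3, against 8.03, 8.03 and 8.03 on TM arrays 1 to 3. It was higher in each TM array (exact permutation p = 0.1, two-sided), as were 20.5% of all clusters, but by little. The difference was 0.07 over all 6 arrays (standard error 0.05, adjusted p = 0.420 from limma) and 0.05 in replicates 1 and 2 (95% limits −0.10 and 0.21). After median centring of the arrays the difference over all 6 was −0.00024. The 95% limits of APAF1 in replicates 1 and 2 lay below those of CYCS and CASP9, and the differences between these genes were not themselves tested.

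TNFRSF10B encodes a death receptor for the ligand TRAIL. It read 7.91, 7.84 and 8.28 on control arrays 1 to 3, against 8.33, 8.30 and 7.81 on TM arrays 1 to 3. As with DDIT3, control 3 lay with TM 1 and TM 2, and TM 3 lay with control 1 and control 2. Its difference was 0.14 over all 6 arrays (standard error 0.17, adjusted p = 0.673 from limma). Without the replicate 3 arrays it was 0.44 (standard error 0.06, 95% limits 0.28 and 0.60), a fold change of 1.36, and narrowly missed the threshold (adjusted p = 0.0507 from limma). It passed with the trend and robust options (adjusted p = 0.0155 from limma). It also passed when only the brighter clusters, those with a mean above the median, were tested (adjusted p = 0.0189). Those settings called 4571 and 5577 clusters, against 825 in the main fit, and the latter setting tested fewer clusters. TNFRSF10B did not pass after quantile normalization (adjusted p = 0.0529), after median centring (0.0522) or with the replicate block (0.107). Without 1 of the 4 arrays, which leaves 1 array in a group, its difference ran from 0.40 to 0.48 and it did not pass either. Of 18215 coding clusters, 258 had a difference at least as high as TNFRSF10B in replicates 1 and 2, TNFRSF10B included.

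TNFRSF10A, the other signalling receptor for TRAIL, read 7.85, 7.77 and 8.05 on control arrays 1 to 3, against 7.97, 8.06 and 7.77 on TM arrays 1 to 3. Its arrays fell in the same 2 sets as those of TNFRSF10B, over a smaller range. The difference was 0.04 over all 6 arrays (standard error 0.10, adjusted p = 0.843 from limma) and 0.20 in replicates 1 and 2 (standard error 0.07, adjusted p = 0.146 from limma). The 95% limits were 0.03 and 0.38 there, and the value over all 6 arrays turned to −0.03 with median centring.

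FAS, the receptor for FAS ligand, read 7.34, 7.26 and 7.38 on control arrays 1 to 3, against 7.30, 7.34 and 7.27 on TM arrays 1 to 3. The groups overlapped in both sets of arrays. Its difference was −0.02 over all 6 arrays (95% limits −0.15 and 0.10) and 0.02 in replicates 1 and 2 (95% limits −0.14 and 0.18), so its upper limit there lay below the lower limit of TNFRSF10B. The sign of this small value changed with median centring, to −0.02 in replicates 1 and 2.

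CASP8, the initiator caspase of the receptor complex, read 7.89, 7.81 and 7.93 on control arrays 1 to 3, against 7.84, 7.78 and 7.73 on TM arrays 1 to 3. Its difference was −0.09 over all 6 arrays (standard error 0.06, adjusted p = 0.383 from limma) and −0.04 in replicates 1 and 2 (95% limits −0.21 and 0.13). CASP4 read 8.14, 8.11 and 8.24 on control arrays 1 to 3, against 8.14, 8.07 and 8.08 on TM arrays 1 to 3. Its difference was −0.07 over all 6 arrays (standard error 0.06, adjusted p = 0.520 from limma) and −0.02 in replicates 1 and 2 (95% limits −0.18 and 0.14). Both caspases were lower in TM 3 than in control 3, by more than their groups differed in replicates 1 and 2.

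**Figure D2:**
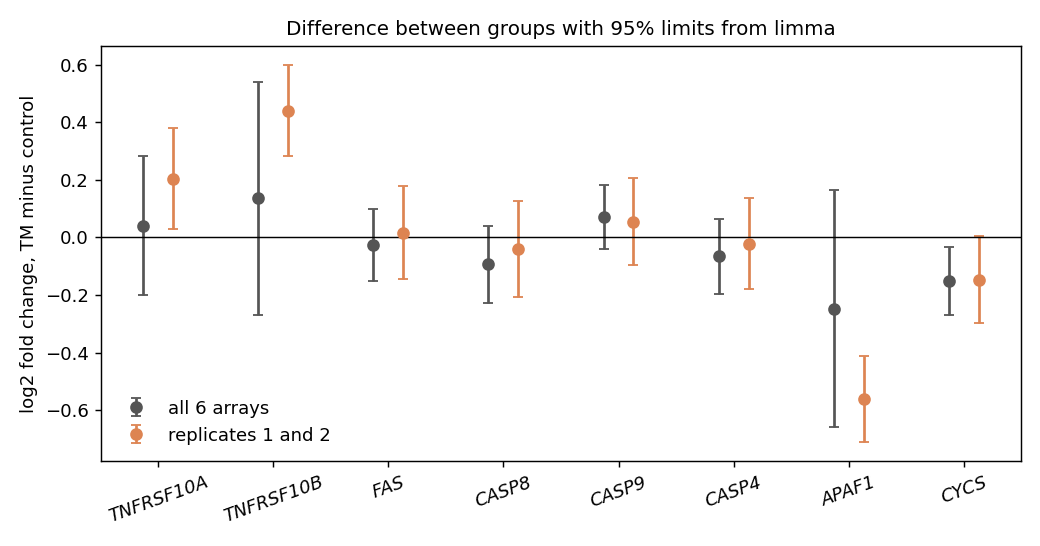
Difference TM minus control (log2 fold change, vertical axis) for each gene over all 6 arrays (grey) and in replicates 1 and 2 (orange), with 95% limits from limma. The limits of TNFRSF10B (0.28 and 0.60), TNFRSF10A (0.03 and 0.38) and APAF1 (−0.71 and −0.41) in replicates 1 and 2 and of CYCS over all 6 arrays (−0.27 and −0.03) lie clear of 0, and the others span it.

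The replicate 3 arrays can be placed on a scale from 0 (mean of control 1 and 2) to 1 (mean of TM 1 and 2) for the 3 genes with the widest ranges. Control 3 was at 0.926 for TNFRSF10B, 1.18 for TNFRSF10A and 0.806 for APAF1. TM 3 was at −0.15, −0.22 and 0.13 for the same genes. TM 3 minus control 3 was −0.47 for TNFRSF10B and 0.38 for APAF1, the reverse of the direction in replicates 1 and 2. For CYCS it was −0.16 and for CASP9 0.10, the same direction as there. What sets control 3 and TM 3 apart was not tested here.

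The coding genes closest to TNFRSF10B in pattern were CALR, PDIA6, RNF43, ETV6 and MAGT1, by the root mean square difference of their centred values over the 6 arrays, from 0.0196 for CALR to 0.0274 for MAGT1. CALR encodes a lectin chaperone of the ER, PDIA6 a disulfide isomerase of the ER, RNF43 a ubiquitin ligase that lowers Wnt receptors, ETV6 a transcriptional repressor and MAGT1 a membrane protein of the oligosaccharyltransferase. Closest to APAF1 were GCNT1, TICRR, ASPM, RBM15 and DNAJB4, from 0.0179 to 0.0312. GCNT1 encodes a branching enzyme of O-glycans, TICRR a factor for starting DNA replication, ASPM a spindle protein, RBM15 a protein of the RNA methylation machinery and DNAJB4 a co-chaperone. Such closeness over 6 arrays is a description of these arrays, in which many genes share the pattern.

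**Figure D3:**
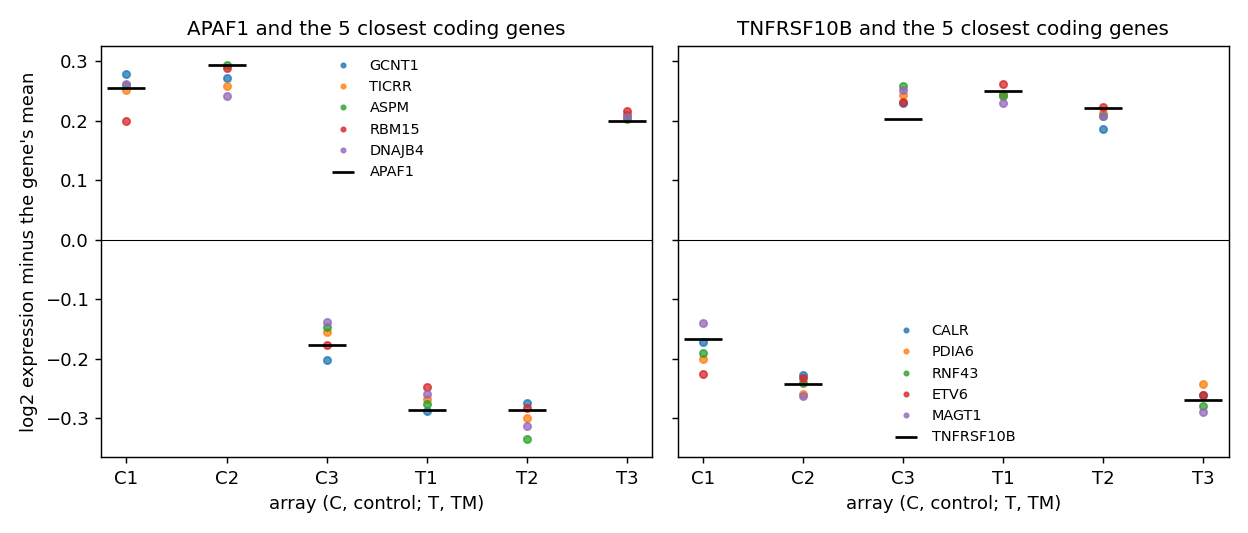
Log2 expression minus the mean of each gene (vertical axis) in the 6 arrays for APAF1 and TNFRSF10B (black bars) and their 5 closest coding genes (points). APAF1 is high in C1, C2 and T3 and TNFRSF10B in C3, T1 and T2, and the neighbours lie within 0.0312 of them in root mean square difference.

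Other genes of the 2 routes were taken from 9 lists, 66 of whose genes had a cluster of their own. In limma at an adjusted p of 0.05, 0 of the 66 passed with all 6 arrays, and without replicate 3, 2 were higher, against 0.546% of all clusters, and 1 was lower, against 0.675%. Their median difference in replicates 1 and 2 was 0.03, against 0.04 over all clusters and 0.05 over coding clusters. Of the 18215 coding clusters, 188 passed as higher there and 60 as lower.

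Among 6 other death receptors and decoys, 1 was lower in replicates 1 and 2 and 5 did not pass. This was TNFRSF10D, a decoy receptor that binds TRAIL and lacks a working death domain. It read 7.62, 7.64 and 7.21 on control arrays 1 to 3, against 7.09, 7.19 and 7.60 on TM arrays 1 to 3. Its arrays thus fell in the same 2 sets as those of TNFRSF10B, with the opposite sign. The difference was −0.49 in replicates 1 and 2 (standard error 0.07, adjusted p = 0.0487 from limma) and −0.20 over all 6 arrays (adjusted p = 0.520 from limma). Its call also ended without any 1 of the 4 arrays, which leaves 1 array in a group, with differences from −0.55 to −0.44. EDAR, the ectodysplasin receptor, had a difference of 0.25 and NGFR one of 0.16, and neither passed.

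Of 5 death ligands 0 passed an adjusted p of 0.05. TNF read 5.82, 5.76 and 5.98 on control arrays 1 to 3, against 6.10, 6.26 and 6.03 on TM arrays 1 to 3. Its neighbour LTA, which encodes lymphotoxin alpha, read 6.05, 5.95 and 6.02 against 6.28, 6.47 and 6.15. Both were higher in each TM array, replicate 3 included, as were 20.5% of all clusters. Their means over the 6 arrays, 5.99 and 6.15, lay below the level of the median coding cluster, 7.06. Over all 6 arrays their differences were 0.28 and 0.29 (adjusted p = 0.168 and 0.163 from limma), and they were the 2 genes of the 66 to pass by unadjusted p with the 1.2-fold minimum, against 5.92% of all clusters. Neither kept that fold after quantile normalization (0.21 and 0.23) or median centring (0.21 and 0.22). Leaving out TM 2 took both below that fold (0.21 and 0.21), and leaving out control 1 (0.26) or control 2 (0.23) did so for TNF. The annotation gives the symbols TNF and LTA to 8 and 7 clusters, of which the brightest is shown. TNFSF10, which encodes TRAIL itself, had a difference of −0.15 in replicates 1 and 2, and TNFSF15 one of 0.43 (adjusted p = 0.0795 from limma).

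Of 7 adaptors and inhibitors of the receptor complexes, 1 was higher and 6 did not pass. TNFAIP3, a ubiquitin-editing inhibitor of NF-kB and of death signalling by TNF, read 9.18, 9.12 and 9.98 on control arrays 1 to 3, against 9.90, 9.77 and 9.06 on TM arrays 1 to 3. TNFAIP3 rose in replicates 1 and 2 by 0.68 (limma, adjusted p = 0.0356, standard error 0.07), with a difference of 0.15 over all 6 arrays (adjusted p = 0.800 from limma). Without 1 of the 4 arrays, which leaves 1 array in a group, its difference ran from 0.62 to 0.75 and it did not pass. CYLD, a deubiquitinase of the same pathways, had a difference of 0.19 and the adaptor TRADD one of 0.11, and neither passed.

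The rest of the caspase family gave no call. Of 6 other caspases 0 passed, 4 were lower and 2 higher in replicates 1 and 2, and their differences ran from −0.26 to 0.13. CASP1, which processes interleukin precursors, had the lowest of these (−0.26, adjusted p = 0.113 from limma), and the executioner CASP6 was at −0.15. CASP1 read 7.49, 7.43 and 7.40 on control arrays 1 to 3, against 7.27, 7.13 and 7.33 on TM arrays 1 to 3, and CASP6 read 7.32 on each control array, against 7.18, 7.16 and 7.21. Both were thus lower in each TM array, replicate 3 included, as were 7.49% of all clusters. Among 8 inhibitor of apoptosis genes and their antagonists 0 passed, with BIRC6 at −0.33 (adjusted p = 0.0699 from limma), BIRC7 at 0.26, BIRC2 at 0.18 and XIAP, which blocks the caspase of the apoptosome, at 0.14. Of 9 genes of caspase substrates and execution factors 0 passed, with the kinase gene ROCK1 at −0.29 (adjusted p = 0.0868 from limma) and PARP1 at −0.11. ROCK1 read 9.543, 9.602 and 9.539 on control arrays 1 to 3, against 9.336, 9.221 and 9.409 on TM arrays 1 to 3, again with no overlap. The 6 genes listed as intermembrane space proteins or partners of cytochrome c ran from −0.02 to 0.11, and 0 passed. The highest was HCCS, the enzyme that attaches the heme of cytochrome c.

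Of 10 genes of the inflammasome and the caspase-1 family, 1 was higher in replicates 1 and 2. IL1B, the interleukin precursor gene, read 9.26, 9.13 and 9.96 on control arrays 1 to 3, against 9.87, 9.84 and 9.21 on TM arrays 1 to 3. IL1B rose in replicates 1 and 2 by 0.66 (limma, adjusted p = 0.0356, standard error 0.07), with a difference of 0.19 over all 6 arrays (adjusted p = 0.696 from limma). Without 1 of the 4 arrays, which leaves 1 array in a group, its difference ran from 0.60 to 0.73 and it did not pass. IL18, the other main substrate of CASP1, had a difference of −0.24 and did not pass. Of 9 genes that p53 is known to activate, as it does FAS, TNFRSF10B and APAF1, 0 passed, with CDKN1A at 0.32 (adjusted p = 0.0721 from limma), PLK3 at 0.30 and SESN1 at −0.21.

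Some list genes kept their labelled groups apart. Of the 66, 11 (16.7%) were higher in each TM array, against 20.5% of all clusters, and 8 (12.1%) lower, against 7.49%. None of TNFRSF10D, TNFAIP3 and IL1B was among them.

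**Figure D4:**
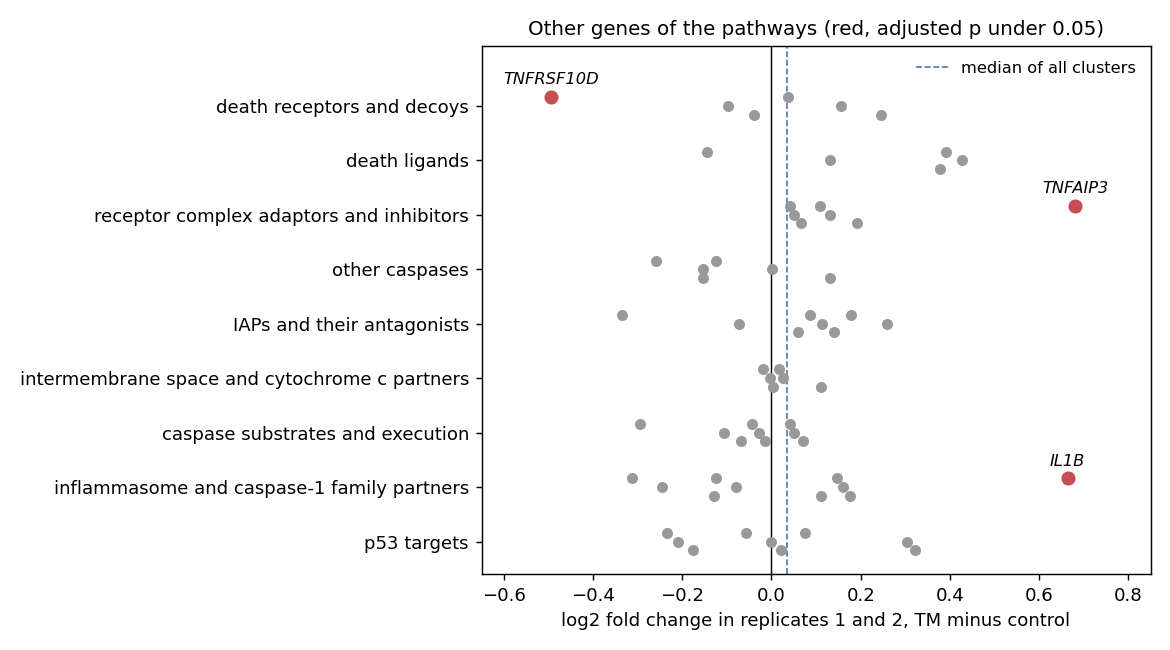
Difference TM minus control in replicates 1 and 2 (log2 fold change, horizontal axis) for 66 genes of 9 lists (rows, each point 1 gene), with a dashed line at the median of all clusters, 0.04. Red points passed an adjusted p of 0.05 in limma, TNFRSF10D below 0 and TNFAIP3 and IL1B above 0.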

How the data were processed

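The authors deposited 1 log2 expression value per transcript cluster and array, for 67528 clusters, already summarised and normalized. The submitters' processing notes name MAS5, and no source used here states the background correction or the build. The number of arrays, 3 per group, limits the precision. Clusters were named by the platform annotation, with symbols updated by the gene table of GRCh38.p14, and 23781 clusters carry 1 symbol, 1543 several and 42204 none. A gene with several clusters was represented by the brightest.

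The whole table was fitted with limma 3.58.1 in R 4.3.3 (lmFit and eBayes, two-sided, no filter), and p-values were adjusted over all clusters by Benjamini-Hochberg at 0.05. The fold change of 1.2 with an unadjusted p under 0.05 is the threshold that the study gives for the array. Samples came from the labels, and the step was tested on simulated data with independent noise. No simulated array stood near the other group, so that test does not cover the setting of control 3 and TM 3. Same-numbered arrays had deviations from the group means with correlations of −0.18, −0.31 and −0.53 over all clusters. These include control 3 and TM 3, which stand near the other group, so they do not settle whether the numbers pair the samples, and no pairing was assumed. The members and lists were chosen with earlier results of these data known. Genes named are the 8 members, 3 ER stress genes, up to 3 genes per list and direction by smallest p in replicates 1 and 2, and the 5 closest to each of the 2 members with the widest range. Alternatives were quantile normalization, median centring, only the brighter clusters, trend and robust options, the replicate block, gene means and leaving out arrays. Figures used matplotlib 3.10.9 in Python 3.11.15.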

Additional observations from a re-analysis of the deposited data

How the results depend on the processing

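Over all 6 arrays the count of the 8 genes at an adjusted p under 0.05 was 0 under each alternative except without both replicate 3 arrays, where it was 1. In replicates 1 and 2 it was 1 (APAF1), and it was 2 with only the brighter clusters (mean above the median) and with trend and robust options, 0 with the replicate block (APAF1 at an adjusted p of 0.0989) and from 0 to 0 with 1 array left out. At the unadjusted p and fold, the count over all 6 arrays was 0, from 0 to 1 with 1 array left out and 2 without both replicate 3 arrays. In replicates 1 and 2 it was 2, falling to 0 at a fold change of 1.5 and to 1 with the adjusted p. For the 66 list genes the 0 calls over all 6 arrays became 3 without both replicate 3 arrays. The 3 calls in replicates 1 and 2 became 13 of 59 with only the brighter clusters, 10 with trend and robust options, 0 with the replicate block and from 0 to 0 with 1 array left out. Over all clusters, 825 calls (369 higher, 456 lower) became 1872 with median centring (563 higher, 1309 lower), 5577 with only the brighter clusters, 4571 with trend and robust options, 28 with the replicate block, and 129, 30, 0 and 0 without control 1, control 2, TM 1 and TM 2. The cause of these moves was not tested.

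Small differences changed sign. With median centring TNFRSF10A was at −0.0303 and CASP9 at −0.00024 over all 6 arrays and FAS at −0.0247 in replicates 1 and 2, while FAS was at 0.0169 without both replicate 3 arrays. With 1 array left out, TNFRSF10A ran from −0.0244 to 0.12 and TNFAIP3 from −0.0144 to 0.423 over all 6 arrays. In replicates 1 and 2, FAS ran from −0.0227 to 0.0564, CASP8 from −0.0847 to 0.00258, CASP4 from −0.055 to 0.0124 and TNFSF10 from −0.300 to 0.00976. Neither APAF1 nor TNFRSF10B changed sign under the alternatives run. Each lone array of a group was assumed to vary like the other group. With the replicate block the calls of TNFRSF10D, TNFAIP3 and IL1B also ended (adjusted p = 0.105, 0.0911 and 0.0953 from limma). TNFRSF10B was at an adjusted p of 0.107 with it. The number of arrays, 2 or 3 a group, limits the precision.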
